A study of Sus scrofa with 90 samples.

Results

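The thin filament features of pig skeletal muscle were followed through the healing of an injection lesion. All features annotated with the single symbol TPM2, TPM3, TNNT1 or TNNC2 that had a value in every column of the deposited table were taken, 17 of the 1908 features that could be tested. The table lists 38 features for these 4 genes, and the other 21 have no value in any column. TPM2 (gene identifier 396693) has 3 of 5 listed features with values, TPM3 (414388) has 1 of 1, TNNT1 (396579) has 1 of 3, and TNNC2 (414905) has 12 of 29. A feature is named below by its number in the table, because each is a separate cDNA spot. No genome build was named for the features, so no position is given.

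The thin filament of the sarcomere is a strand of actin on which tropomyosin lies as a continuous coiled coil. A troponin complex sits on each tropomyosin. Troponin C binds calcium, troponin I holds the filament in its resting state, and troponin T ties the complex to tropomyosin. When calcium is released, troponin C takes it up, tropomyosin shifts on the actin, and myosin can bind. Fast and slow fibres use different genes for most of these parts. TPM2 encodes beta-tropomyosin, found in fast and slow fibres. TPM3 encodes the tropomyosin of slow fibres and, from other promoters, short tropomyosins of non-muscle cells. TNNT1 encodes the troponin T of slow fibres, and TNNC2 the troponin C of fast fibres. The Longissimus dorsi, a back muscle, is made mostly of fast fibres in pigs.

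The samples came from 10 piglets, named C to L, whose strain, sex and age the labels do not state. Propylene glycol, a solvent that serves as a vehicle for injected drugs, was given into the Longissimus dorsi at staggered times, so that each animal carried lesions of 6 h, 2 d, 7 d and 21 d and a site that was not injected. Every sample was hybridised as cDNA with a 33P label to a nylon array. Since the control sites were not injected with any fluid, the needle and the propylene glycol cannot be told apart, and each animal carried all of its lesions at once. Arrays of 10 controls entered the fit. The lesions numbered 9 at the age of 6 h and 10 at 2 d, then 9 for each later age, with no 7 d array from pig J and no 21 d array from pig L. The samples of a group are from separate animals. The tissue is whole muscle, so fewer muscle fibres and less RNA per fibre cannot be told apart.

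The table holds logarithms, and the labels do not say to which base. They were quantile normalized, and every level below is a normalized log value. Differences are in the same log units. One log unit would be a 2-fold difference if the base is 2 and a larger one if it is the natural logarithm. Features were compared with limma, with the animal as a block, and a feature was called at a Benjamini-Hochberg adjusted p under 0.05 over all 1908 features. A level of one feature was not set against that of another, since spots differ in cDNA and in the amount bound. The exception is the percentile of a feature among the values of an array, used with the place on the list. Gene symbols come from an annotation of the array platform, and whether each belongs to its spot could not be settled, as the correlations given further on show. The table gives no background or detection value, so whether the spots with values near or below the middle of an array stood above background was not tested. Tropomyosin genes are closely alike in sequence, and whether a spot of one also bound transcripts of another was not tested.

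The arrays themselves differed between groups. The spread of the values over features on an array, given as the SD before normalization, averaged 0.976 ± 0.237 (SD over 10 arrays) for controls. For lesions of 6 h it averaged 0.744 ± 0.0926 and for 2 d lesions 0.805 ± 0.0985. The older lesions had the narrowest arrays, with 0.607 ± 0.158 for 7 d and 0.643 ± 0.196 for 21 d. One further array, that of pig F at 6 h, had its values displaced along the feature list. They correlated at 0.240 with the mean of the other arrays as listed and at 0.739 after a move by 384 features. For the other 47 arrays the correlation as listed was 0.718 or more, and no other offset gave more than 0.346. The displaced array was left out. One column of the 6 h lesion of pig J was a copy of the control of pig I and was left out too.

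A minority of the 17 features was called against control at 6 h, 7 d and 21 d, each of them lower, and none was called at 2 d. At 6 h, 3 of 17 were called, all lower, beside 11.8% of all features called in either direction and 4.87% called lower. They were TPM2 feature 6108 and TNNC2 features 5336 and 5361. At 7 d, 6 of 17 were called, all lower, beside 25.4% of all features in either direction and 14.6% lower. That count was 3 or 4 when any 1 animal was left out, and 3 with every array kept, with the local trend along the list subtracted or without the samples that share copied values. At 21 d, 5 of 17 were called, all lower, beside 14.7% and 8.23% of all features. At 2 d limma called 0 of 17, with 1 at an unadjusted p under 0.05, beside 0.734% of all features called.

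The median difference from control over the 17 features, in order of lesion age, was -0.04, -0.02, -0.17 and -0.12. The medians over all 1908 features were -0.02, -0.02, -0.0089 and -0.00092. Of the 17 differences, 7, 7, 6 and 4 were above 0 in order of lesion age. The 4 comparisons share their control samples. A test of any change over the 4 lesion ages called 4 of 17, which is close to the 22.6% of all features that it called. TPM2 feature 6108 was among them (adjusted p = 0.000393), as were TNNC2 features 5336 (7.89e-06), 5361 (0.00597) and 5376 (0.0288).

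These sizes depend on the scaling. On the table values without normalization, all 14 called differences from control were more than 1.5 times larger, between -0.76 and -1.35, and 6, 0, 10 and 10 of the 17 features were called lower at 6 h, 2 d, 7 d and 21 d. One was called higher, TNNC2 feature 6078 at 7 d (0.23, adjusted p = 0.0411). The medians over the 17 were then -0.50, -0.27, -0.85 and -0.73, with the medians over all features between -0.04 and 0.01. Over all features, 393 were then called lower and 103 higher at 6 h, where the normalized values gave 93 lower and 132 higher. At 21 d the table values gave 530 lower and 178 higher, against 157 and 124. With the SD of each array as a covariate in the fit of normalized values, 1, 0, 2 and 0 of the 17 were called at 6 h, 2 d, 7 d and 21 d. Over all 1908 features that fit called 162, 12, 265 and 111, and the balance of directions moved the other way. It called 25 lower and 137 higher at 6 h, 86 and 179 at 7 d, where the fit without the covariate gave 279 and 205, and 18 and 93 at 21 d. Group and array SD move together, and their parts in the differences cannot be told apart.

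**Figure D1:**
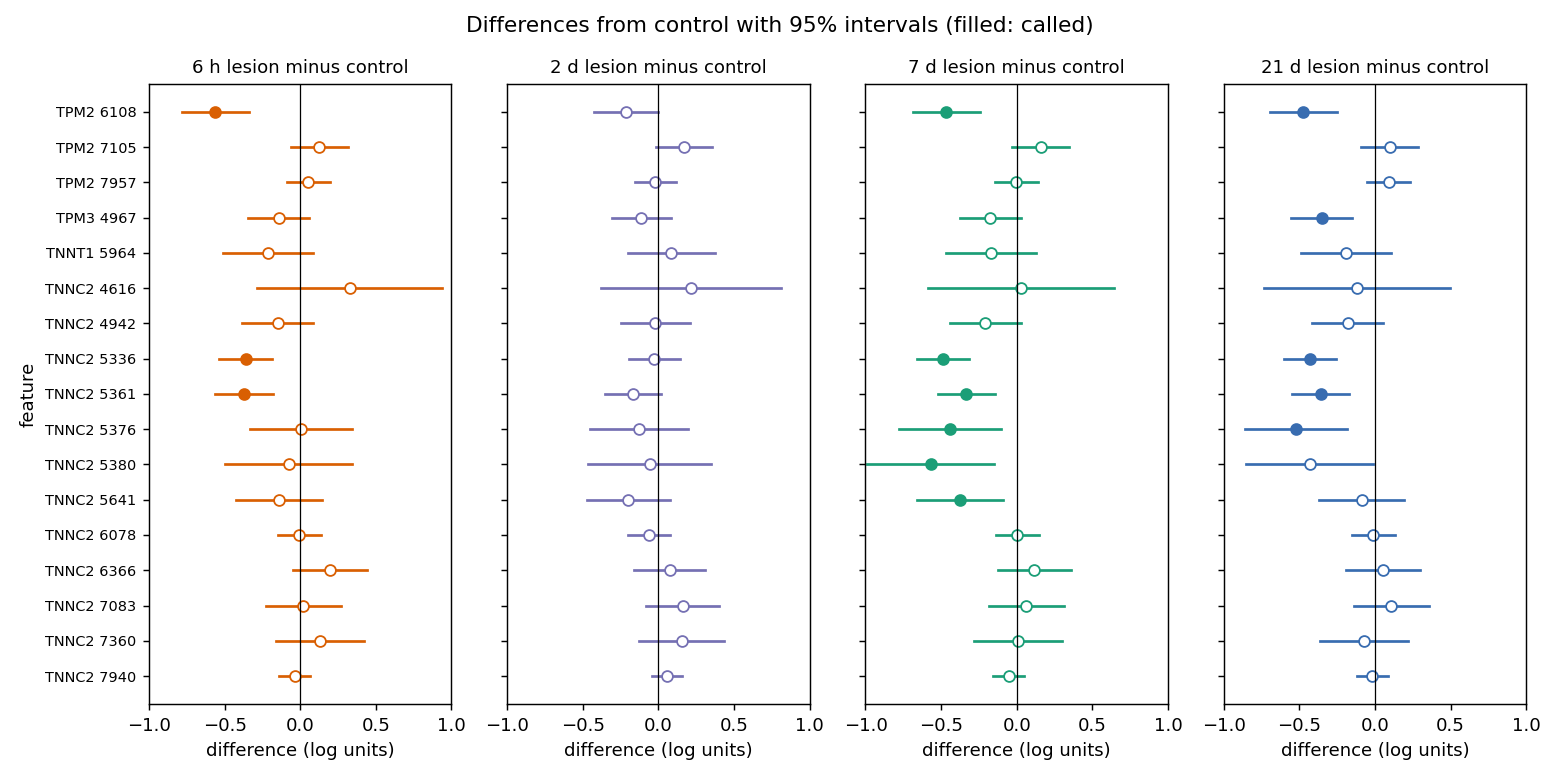
Difference from control in log units (horizontal axis) of each of the 17 features (vertical axis) at the 4 lesion ages, with its 95% confidence interval from the limma fit; filled points were called. TPM2 feature 6108 and TNNC2 features 5336 and 5361 lie below 0 with called differences at 6 h, 7 d and 21 d, and no point is filled at 2 d.

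Among the tropomyosins, TPM2 feature 6108 fell at 6 h, 7 d and 21 d. In controls its level ran from 0.78 to 1.11 with a median of 0.93. At 6 h it ran from 0.09 to 0.70 with a median of 0.37. All 9 lesions of 6 h lay below the lowest control, so the groups did not overlap on normalized values. On the table values they did overlap, from 0.08 to 0.96 at 6 h against 0.46 to 1.92 in controls. There 5 of 9 lesions of 6 h lay below the lowest control, then 1 of 10, 6 of 9 and 6 of 9 at the later ages. The share of all features without overlap was not counted. The normalized difference at 6 h was -0.56 (SE 0.11, adjusted p = 0.000355, lower in 9 of 9 animals), which is 1.48-fold lower in base 2 and 1.75-fold lower on the natural scale. It was the smallest adjusted p of the 17 features at this age.

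At 2 d the level of TPM2 feature 6108 ran from 0.22 to 0.96 with a median of 0.74, and 6 of 10 lesions lay below the lowest control. The difference of -0.22 was not called (SE 0.11, adjusted p = 0.551, lower in 9 of 10 animals). On values centred on each array's median, a difference of -0.49 was called (adjusted p = 0.0491). The 2 d lesions thus lay between controls and 6 h lesions in their median.

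At 7 d its level ran from -0.03 to 1.38 with a median of 0.37. The lesion of pig E, at 1.38, was above every control, and the other 8 lay below the lowest control. The difference was -0.46 (SE 0.11, adjusted p = 0.00128, lower in 8 of 9 animals). At 21 d the level ran from -0.12 to 1.02 with a median of 0.43, and the lesion of pig J, at 1.02, was the single one above the lowest control. The difference was -0.47 (SE 0.11, adjusted p = 0.00232, lower in 8 of 9 animals). Of 21 alternative analyses, all 21 called TPM2 feature 6108 at 6 h and at 7 d, and 20 called it at 21 d. With array SD as a covariate the 21 d difference was -0.41 (adjusted p = 0.0649).

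The other TPM2 features were not called at any age. TPM2 feature 7105 had a median of -0.08 in controls (from -0.20 to 0.20), 0.16 at 6 h (-0.21 to 0.22), 0.08 at 2 d (-0.25 to 0.46), 0.10 at 7 d (-0.45 to 0.46) and 0.02 at 21 d (-0.28 to 0.56). All groups overlapped. Its differences from control were 0.13, 0.17, 0.16 and 0.10, none called (adjusted p from 0.231 to 0.581).

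TPM2 feature 7957 had a median of -0.31 in controls (from -0.48 to -0.07), -0.28 at 6 h (-0.48 to 0.14), -0.31 at 2 d (-0.44 to -0.19), -0.28 at 7 d (-0.46 to -0.15) and -0.26 at 21 d (-0.45 to 0.12). Its differences were 0.05, -0.02, -0.0040 and 0.09, none called (adjusted p from 0.437 to 0.970). The 95% confidence interval of the difference at 6 h was -0.06 to 0.32 for feature 7105 and -0.09 to 0.19 for feature 7957.

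The unequal behaviour of the TPM2 features was tested directly, in a fit over all 21115 pairs of features that carry a symbol. The difference of TPM2 feature 6108 was below that of feature 7105 by -0.69 at 6 h (adjusted p = 0.00101), by -0.62 at 7 d (0.00181) and by -0.57 at 21 d (0.00763). Against feature 7957 the values were -0.61 (0.000637), -0.46 (0.00703) and -0.56 (0.00197). Of the 3 TPM2 pairs, 2 were unequal at each of these ages, beside 10.4% of all pairs at 6 h, 23.8% at 7 d and 11.0% at 21 d. With array SD as a covariate, 0 of the 3 pairs were unequal at 7 d and at 21 d. Which of the 3 spots follows the TPM2 transcript cannot be decided from these values.

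TPM3 feature 4967, the tropomyosin of slow fibres, fell at 21 d. The ages were not shown to differ, since the step from 7 d to 21 d was -0.18 (adjusted p = 0.652) and the test over all ages was not called (0.0811). In controls its level ran from 1.44 to 2.11 with a median of 1.81. At 6 h it ran from 1.43 to 1.86 (median 1.66), at 2 d from 1.38 to 1.90 (1.69), at 7 d from 1.41 to 2.18 (1.59) and at 21 d from 0.80 to 1.79 (1.49). Every lesion group overlapped the controls, and 4 of 9 lesions of 21 d lay below the lowest control.

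The 21 d difference of TPM3 was -0.35 (SE 0.099, adjusted p = 0.0135, lower in 8 of 9 animals), 1.28-fold lower in base 2. The differences at 6 h, 2 d and 7 d were -0.14, -0.11 and -0.17 (adjusted p = 0.398, 0.709 and 0.214). The lesion of pig J, at 0.80, was the lowest. Its array had the lowest correlation as listed of the 47 kept arrays, 0.718. Without pig J the difference was -0.27 (adjusted p = 0.0615) and without pig D -0.30 (0.0546). The call was lost under 7 of 21 alternatives, with adjusted p from 0.000200 to 0.234 over all of them. TPM3 was also called at 6 h (-0.78) and 7 d (-1.05) on the table values.

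**Figure D2:**
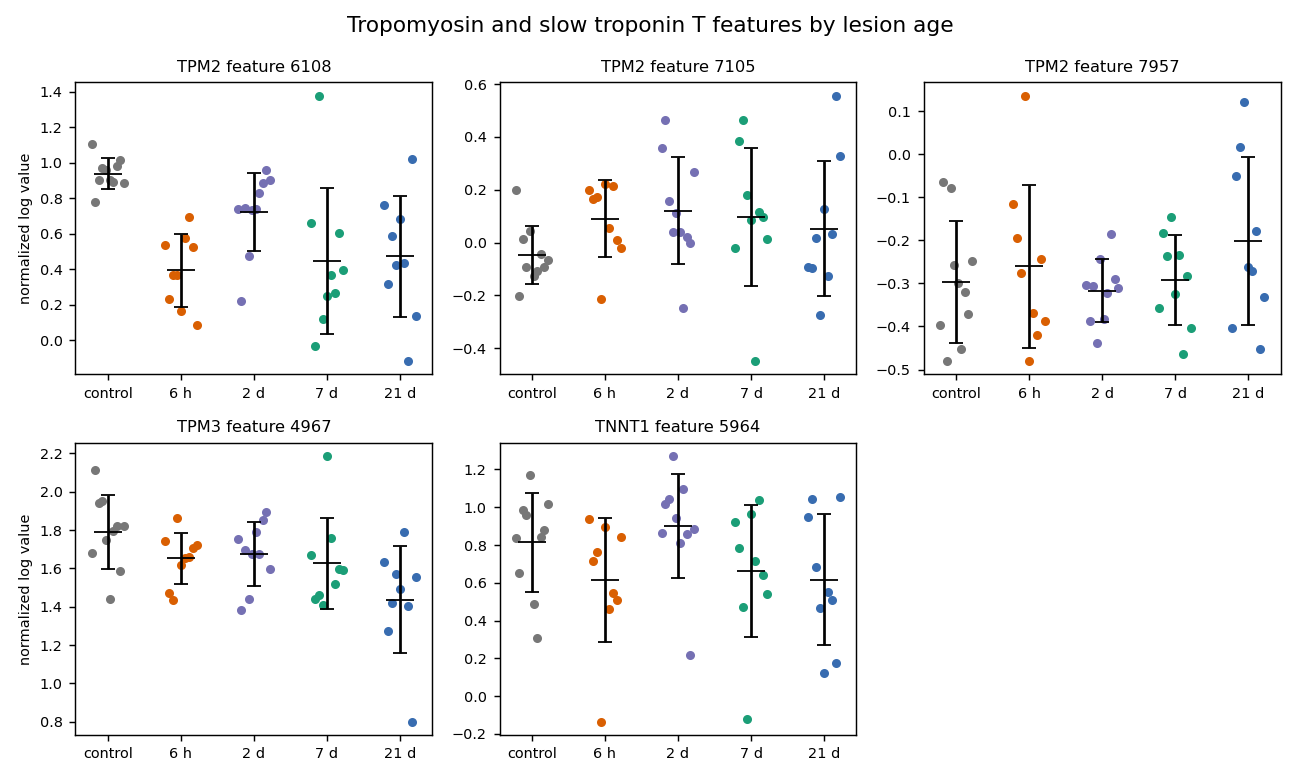
Normalized log value (vertical axis) of the TPM2, TPM3 and TNNT1 features in each sample of the control and the 4 lesion ages (horizontal axis), with bars for the mean ± SD of n = 9 or 10 animals. In TPM2 feature 6108 the normalized 6 h points, from 0.09 to 0.70, lie below all controls, while TPM2 features 7105 and 7957 overlap the controls at every age. On the table values the 6 h points of feature 6108 overlap the controls, with 5 of 9 below the lowest control. The share of all features without overlap was not counted.

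Troponin T of slow fibres, TNNT1 feature 5964, was not called at any age. Its level ran from 0.31 to 1.17 in controls (median 0.86), from -0.13 to 0.94 at 6 h (0.72), from 0.22 to 1.27 at 2 d (0.91), from -0.12 to 1.04 at 7 d (0.72) and from 0.12 to 1.06 at 21 d (0.55). All groups overlapped, and each lesion group had 1 or 2 samples below the lowest control. The differences were -0.21 (95% confidence interval -0.51 to 0.09), 0.09 (-0.20 to 0.37), -0.17 (-0.46 to 0.13) and -0.19 (-0.49 to 0.11), with adjusted p from 0.394 to 0.818. TNNT1 was called lower on the table values at 7 d (-0.56, adjusted p = 0.0276) and 21 d (-0.56, 0.0264).

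Troponin C of fast fibres gave 12 features, of which 5 fell in at least one lesion age and 7 were not called at any. The 5 were called 2 times at 6 h, 5 times at 7 d and 3 times at 21 d. TNNC2 feature 5336 had the smallest adjusted p of the 17 features at 7 d and 21 d. Its level in controls ran from 1.81 to 2.26 with a median of 2.02. At 6 h it ran from 1.12 to 1.94 with a median of 1.65. Below the lowest control were 7 of 9 lesions, and 4 of 9 on the table values. At 2 d the level ran from 1.91 to 2.14 with a median of 1.98, wholly above the lowest control.

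At 7 d the level of TNNC2 feature 5336 ran from 1.04 to 1.94 (median 1.51), and at 21 d from 1.20 to 1.86 (1.64). All but 1 of the lesions at 7 d, and 7 of 9 at 21 d, lay below the lowest control. On the table values 5 of 9 did so at each of these ages. The differences were -0.36 at 6 h (SE 0.086, adjusted p = 0.00380, lower in 9 of 9 animals), -0.03 at 2 d (SE 0.083, 0.902), -0.49 at 7 d (SE 0.086, 3.97e-05, 8 of 9) and -0.43 at 21 d (SE 0.086, 0.000533, 9 of 9). In base 2 the 7 d difference is 1.40-fold and on the natural scale 1.63-fold. The calls at 6 h and 21 d were lost with array SD as a covariate (adjusted p = 0.0722 and 0.10), and the 7 d call held under all 21 alternatives.

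TNNC2 feature 5361 fell at the same 3 ages. Its level ran from 0.97 to 1.23 in controls (median 1.14), 0.42 to 0.98 at 6 h (0.77), 0.68 to 1.11 at 2 d (1.02), 0.31 to 1.02 at 7 d (0.91) and 0.10 to 1.13 at 21 d (0.75). Below the lowest control were 8 of 9 lesions at 6 h, 4 of 10 at 2 d, and 7 of 9 at both later ages. The counts on the table values were 2, 0, 5 and 4 in order of lesion age. The differences were -0.37 at 6 h (SE 0.094, adjusted p = 0.00640), -0.17 at 2 d (0.581), -0.33 at 7 d (0.00753) and -0.36 at 21 d (0.00800), and the sample was lower than its own control in all 9, 10, 9 and 9 animals. With array SD as a covariate the called values were -0.24, -0.13 and -0.16, none called (adjusted p = 0.131, 0.471 and 0.444). The 6 h call was also lost with every array kept (-0.26, 0.121). With the local trend along the feature list subtracted, the values at 7 d and 21 d were -0.19 (0.132) and -0.23 (0.0973).

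TNNC2 feature 5376 fell at 7 d and 21 d. It ran from 1.41 to 2.09 in controls (median 1.59), 1.31 to 2.07 at 6 h (1.77), 0.65 to 2.19 at 2 d (1.58), 0.77 to 2.00 at 7 d (1.27) and 0.28 to 1.53 at 21 d (1.31). At 7 d all lesions but that of pig H lay below the lowest control. The differences were 0.0031 at 6 h (adjusted p = 0.995), -0.13 at 2 d (0.778), -0.44 at 7 d (SE 0.17, 0.0452, lower in 8 of 9 animals) and -0.52 at 21 d (SE 0.17, 0.0298, 8 of 9). These are calls near the threshold. The 7 d call was lost under 12 of 21 alternatives and the 21 d call under 5. Array SD as a covariate, the local trend subtracted and every array kept each ended both calls. The 7 d call was lost when any of pigs C, D, F, G, I, J, K or L was left out (values from -0.36 to -0.48), and the 21 d call without pig I (-0.48, adjusted p = 0.0909) or pig J (-0.39, 0.137). The lowest 21 d value, 0.28, was from the array of pig J, which had the lowest correlation as listed of those kept.

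TNNC2 features 5380 and 5641 were called at 7 d and at no other age. Feature 5380 ran from 0.64 to 1.88 in controls (median 1.13) and from 0.20 to 1.07 at 7 d (0.55), with 6 of 9 lesions below the lowest control. Its 7 d difference was -0.57 (SE 0.21, adjusted p = 0.0401, lower in 7 of 9 animals), and that at 21 d was -0.43 (0.175). The call was lost under 11 of 21 alternatives, with adjusted p up to 0.387. Leaving out pig D, E, H, I, J, K or L ended it (values from -0.48 to -0.57, adjusted p from 0.0534 to 0.114). So did array SD as a covariate, the local trend subtracted, every array kept, and leaving out the samples that share copied values.

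Feature 5641 ran from 0.91 to 2.70 in controls (median 1.10) and from 0.60 to 1.03 at 7 d (0.88), with 5 of 9 lesions below the lowest control. Its control of pig K, at 2.70, stood apart from the next control at 1.19. The 7 d difference was -0.37 (SE 0.14, adjusted p = 0.0456, lower in 8 of 9 animals), and without pig K it was -0.20 (0.126). The call was lost under 15 of 21 alternatives, among them the fit with no replicate block (-0.39, 0.0731) and the removal of any pig other than D or J.

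The remaining 7 TNNC2 features were called at no age. Feature 4616 had a control median of 3.12 (1.12 to 3.47) and differences of 0.33, 0.22, 0.03 and -0.12 at 6 h, 2 d, 7 d and 21 d, with wide intervals such as -0.29 to 0.94 at 6 h. Feature 4942 had a control median of 2.36 (1.60 to 2.60) and differences of -0.15, -0.02, -0.21 and -0.18. On the table values it was called lower at 6 h (-0.82), 7 d (-1.16) and 21 d (-1.17). Feature 6366 had a control median of 1.08 (0.87 to 1.29) and differences of 0.20, 0.07, 0.12 and 0.05. Its direction turned with the scaling, since the table values gave calls of -0.52 at 7 d and -0.55 at 21 d, and array weights gave a call of 0.36 at 6 h.

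The last 4 had control medians below 0 on the normalized log scale. Feature 6078 had a control median of -0.39 (-0.48 to -0.05) and differences of -0.0057, -0.06, 0.0042 and -0.01. Feature 7083 had a control median of -0.28 (-0.38 to 0.03) and differences of 0.02, 0.16, 0.06 and 0.11. Feature 7360 had a control median of -0.22 (-0.56 to 0.60) and differences of 0.13, 0.15, 0.0077 and -0.07. Feature 7940 had a control median of -0.47 (-0.60 to -0.30) and differences of -0.04, 0.05, -0.05 and -0.02. In all 4 the lesions overlapped the controls at every age.

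**Figure D3:**
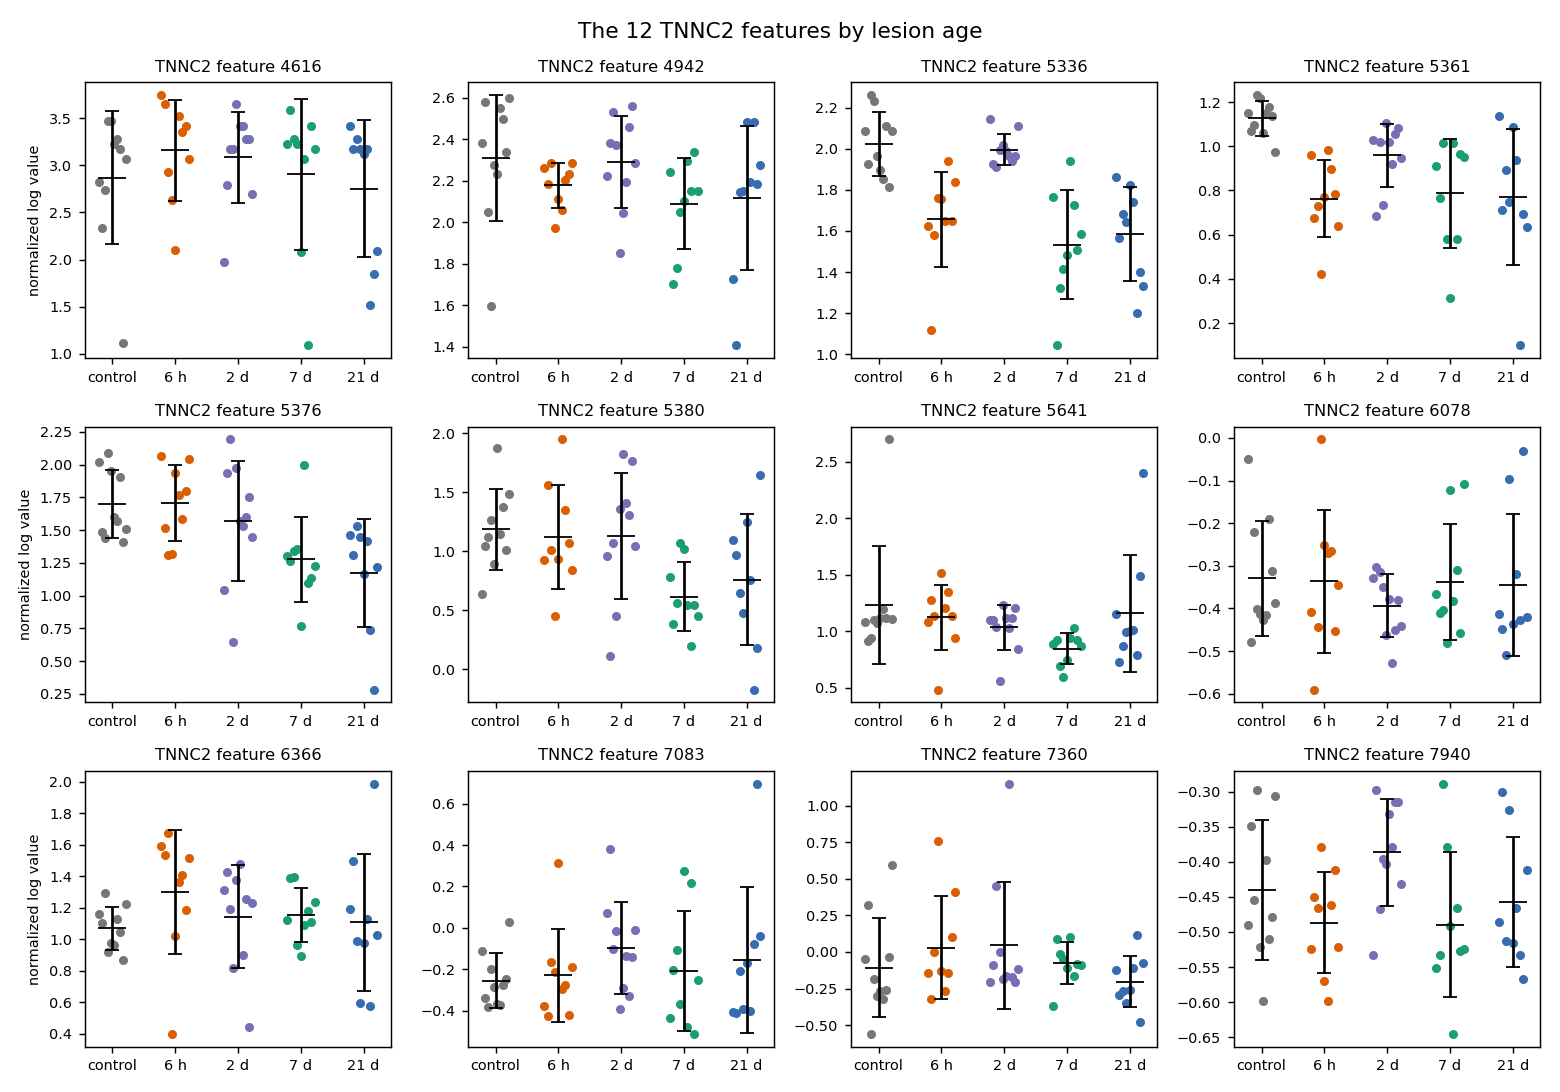
Normalized log value (vertical axis) of the 12 TNNC2 features in each sample of the control and the 4 lesion ages (horizontal axis), with bars for the mean ± SD of n = 9 or 10 animals. Feature 5336 sits at 1.91 to 2.14 in the 2 d lesions and reaches 1.04 at 7 d, and feature 5361 has 8 of 9 points at 6 h, and 7 of 9 at both later ages, below the lowest control.

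The differences of the 12 TNNC2 features were unequal in part. Of their 66 pairs, 5 had unequal differences at 6 h, 10 at 7 d and 7 at 21 d, or 7.58%, 15.2% and 10.6%, shares no larger than those of all pairs. Feature 6366 entered 2, 5 and 2 of these pairs. At 7 d its difference lay above that of feature 5336 by 0.60 (adjusted p = 0.00417) and above that of feature 5380 by 0.68 (0.0236). On the table values 23, 38 and 38 pairs were unequal, and with array SD as a covariate 1, 0 and 0.

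The steps between successive lesion ages were tested in the same fit. From 6 h to 2 d, 2 of 17 features rose, beside 6.18% of all features called in either direction and 1.52% called higher. TNNC2 feature 5336 rose by 0.33 (SE 0.086, adjusted p = 0.0108, higher in 8 of 9 animals and equal in the other). TPM2 feature 6108 rose by 0.35 (SE 0.11, adjusted p = 0.0487, higher in 8 of 9 animals). The second of these calls was lost under 15 of 21 alternatives, among them the removal of pig C, F, G, H, J, K or L (values from 0.29 to 0.36) and the fit with no replicate block. Neither was called on the table values, with 0.52 for feature 5336 and 0.35 for feature 6108.

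From 2 d to 7 d, 1 of 17 features fell, beside 16.5% of all features in either direction and 7.02% lower, so the count itself is near that of all features. It was TNNC2 feature 5336, which fell by 0.46 (SE 0.086, adjusted p = 0.000127, lower in 9 of 9 animals), a call that held under all 21 alternatives. TPM2 feature 6108 differed by -0.25 (0.121), and by -0.37 (0.0146) without pig E. From 7 d to 21 d, limma called 0 of 17, with 0 at an unadjusted p under 0.05, beside 0.681% of all features. The differences between these ages ran from -0.18 to 0.28.

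How far the listed symbols describe their spots was examined through the correlations of features over the 47 arrays, after the mean of each animal was subtracted. The arrays share hybridisation and scaling, so these are descriptions. The median correlation between TNNC2 features was 0.06 over 66 pairs, and between TPM2 features it was -0.17 over 3 pairs. Over all 347 pairs of features with the same symbol the median was 0.0081, and over 20768 pairs with different symbols it was -0.0054. The median for features of 1 symbol was thus close to that for features of different symbols. Of all same-symbol pairs, 17.3% had unequal differences at 6 h, 28.0% at 7 d and 16.1% at 21 d. Whether each symbol belongs to its spot is therefore undecided for every result given here.

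The 5 called TNNC2 features correlated with each other at a median of 0.35 (10 pairs, from 0.06 to 0.62), and TPM2 feature 6108 with them at a median of 0.36, up to 0.78 with feature 5361. These features were grouped because they had been called, so the values describe that choice. The named genes most like TPM2 feature 6108 over the 47 arrays were QDPR (0.69), RPL11 (0.62), ENO3 (0.59), NDUFA4 (0.58) and RABAC1 (0.58). QDPR recycles a cofactor of amino acid hydroxylases, RPL11 is a ribosomal protein, ENO3 is the muscle enolase, and NDUFA4 is a subunit of mitochondrial respiration.

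For TNNC2 feature 5336 the most alike were SLC35A4 (0.76), CKM (0.72), POMGNT1 (0.68), MYLPF (0.64) and HTT (0.63). CKM is muscle creatine kinase and MYLPF the regulatory light chain of fast myosin. The values are those of CKM feature 5072 and MYLPF feature 5475, the highest among several features of each gene. Features of both genes were called in both directions at 7 d, so the likeness is that of these spots. For TNNC2 feature 5361 they were QDPR (0.76), RACK1 (0.74), SLC35A4 (0.73), RPL11 (0.72) and RABAC1 (0.69). For feature 5376 they were SLC35A4 (0.64), POMGNT1 (0.60), CKM (0.55), ACADS (0.53) and CAPNS1 (0.53), and for feature 5380 RABAC1 (0.66), RPL11 (0.64), SMPX (0.63), HTT (0.56) and GSTO1 (0.55). SLC35A4, QDPR, RPL11, RABAC1, CKM, POMGNT1 and HTT each recur in this set.

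Feature 5641 was most like FABP3 (0.54), COX7A1 (0.52), TPI1 (0.52), TNNT3 (0.51) and RPL19 (0.46). TPM3 feature 4967 was most like RPS20 (0.64), EIF4A3 (0.61), POMGNT1 (0.60), CKM (0.59) and PSME3 (0.51). FABP3 carries fatty acids in oxidative muscle and COX7A1 is a muscle subunit of cytochrome oxidase, while RPS20 and EIF4A3 serve translation and RNA handling.

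The place of a feature on the list also went with its difference. Over the 1353 tested features numbered below 7000, the median difference at 7 d was -0.08, and 63.6% were below 0. Over the 555 numbered 7000 and above it was 0.09, with 21.8% below 0. Of the 17 features, all 7 that were called against control lie below 7000, as do 1353 of the 1908 tested features. The share of all called features below 7000 was not counted. The 5 called TNNC2 features are numbered 5336 to 5641. Level went with place as well. The median percentile within an array was 76.5 to 94.4 for the 7 called features, and 3.93 to 48.5 for the members above 7000. Of the members below 7000 that were not called, TNNC2 feature 6078 was at 9.33. The others were as high as the called features, with TNNC2 features 4616, 4942 and 6366 at 99.5, 97.0 and 86.3. TNNT1 feature 5964 was at 80.3. The parts of level and place were not tested. TPM2 feature 6108 is below 7000 and TPM2 features 7105 and 7957 are above it.

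Near neighbours of TPM2 feature 6108 and TNNC2 feature 5336 on the list were lower too, by less. The 32 tested features within 25 places of TPM2 feature 6108 had a median difference of -0.16 at 7 d against its own -0.46. Of these neighbours 6 were called lower (18.8%), beside 14.6% of all features. At 6 h the 32 neighbours had -0.11 against -0.56, with 3 called lower (9.38%), beside 4.87% of all features. The 36 neighbours of TNNC2 feature 5336 had -0.13 at 7 d against -0.49, with 6 called lower (16.7%). Neighbours of members that were not called went both ways at 7 d. Those of TNNT1 feature 5964 had -0.09, with 10 of 31 called lower. Those of TNNC2 features 4616 and 7940 had 0.04 and 0.18, with 0 called lower. With a local trend along the list subtracted, TPM2 feature 6108 was still called at 6 h (-0.49), 7 d (-0.38) and 21 d (-0.39), as was TNNC2 feature 5336 (-0.28, -0.36 and -0.32). Of the other called features, 5361 was then called at 6 h (-0.30), and none at 7 d or 21 d, while TNNC2 feature 7940, not called otherwise, was called lower at 7 d (-0.26).

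**Figure D4:**
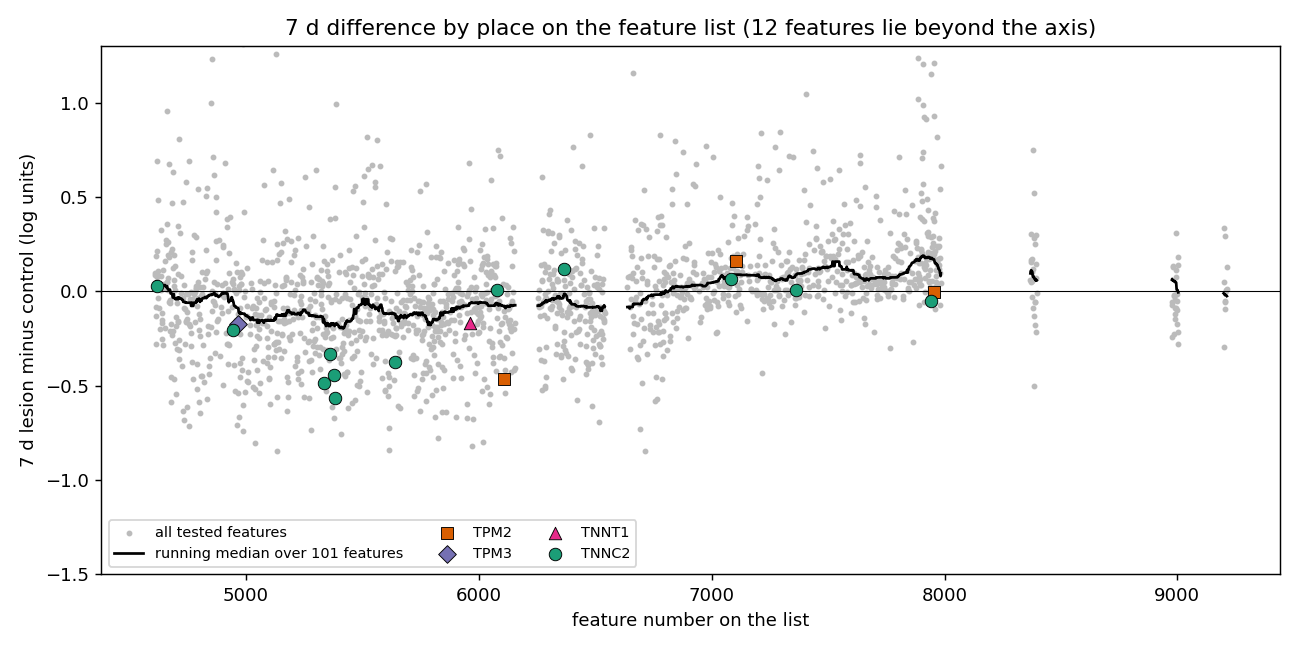
Difference between 7 d lesion and control in log units (vertical axis) against feature number on the list (horizontal axis) for all tested features in grey and the 17 thin filament features in colour, with a running median as a black line; 12 features lie beyond the axis. The running median lies mostly below 0 for numbers under 7000 and above 0 after that, and the TNNC2 points numbered 5336 to 5641 and TPM2 feature 6108 lie below it.

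The rest of the thin filament was represented by TPM1, TNNI2, TNNT3 and XIRP2, so that 8 of the 28 genes of the thin filament list were measured, with 24 features. Actin, nebulin and tropomodulin genes of the list had no tested feature. TPM1, the main tropomyosin of fast fibres, gave 3 features and none was called. Their differences at 7 d were 0.21 (feature 4767), 0.19 (5206) and -0.08 (6648). TNNI2, the fast troponin I, differed by 0.09, -0.02, 0.09 and 0.10 at 6 h, 2 d, 7 d and 21 d, none called.

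TNNT3, the fast troponin T, gave 2 features. Feature 7659 fell at 7 d by 0.18 (SE 0.065, adjusted p = 0.0433, lower in 8 of 9 animals), from a control median of -0.22 (-0.46 to -0.07) to -0.44 (-0.71 to -0.28). Feature 6977 differed by -0.03 at 7 d and was not called at any age. XIRP2, an actin-binding protein of the myofibre's attachment sites, went the other way. Its feature 7647 rose from a control median of -0.03 to 1.16 at 6 h, 1.99 at 7 d and 2.21 at 21 d, with a median of 0.0054 at 2 d. The differences at the 3 called ages were 1.21, 2.08 and 2.22 (adjusted p = 3.22e-10, 2.29e-17 and 1.60e-18), and it was higher in 9 of 9 animals at each. Without the 17 features, the list held 7 features, of which 1 was called higher at each of 6 h, 7 d and 21 d, and 0, 1 and 0 lower.

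Other parts of the sarcomere were called in both directions. The lists overlap, and the MYLPF features count in the thick filament, fast fibre and myofibre marker lists alike. At 7 d MYLPF features 5355, 5475, 5772, 5942 and 6113 were called lower and 6082 and 7944 higher. Over all features the shares called lower and higher were 4.87% and 6.92% at 6 h, 14.6% and 10.7% at 7 d, and 8.23% and 6.50% at 21 d. Of 30 thick filament features (MYH1, MYH2, MYH7, MYL1, MYL2 and MYLPF), 2 were lower and 3 higher at 6 h, 6 lower and 3 higher at 7 d, and 2 lower and 3 higher at 21 d, with a 7 d median of -0.02. Of 9 slow fibre features, TPM3 and TNNT1 included, 1 was lower and 1 higher at 6 h and again at 7 d, and 2 were lower and 1 higher at 21 d. Of 42 fast fibre features, TNNC2 included, 3 were lower and 2 higher at 6 h, 11 and 2 at 7 d, and 4 and 2 at 21 d, with a 7 d median of -0.03. Without the 12 TNNC2 features, 6 of the other 30 were lower and 2 higher at 7 d. At 6 h and again at 21 d, 1 of these 30 was lower and 2 were higher. Of 7 Z disc features (ANKRD1, DES and MYOZ1), limma called 0 at any age, with 2, 0, 1 and 1 at an unadjusted p under 0.05 in order of lesion age. Of 10 non-muscle cytoskeleton features (ACTB, CFL1 and TUBA1B), 1 was lower and 1 higher at 7 d and 2 were higher at 21 d.

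Myofibre markers were called in both directions, with the MYLPF and DES features already counted in the lists above. Of 6 marker genes, 4 (CKM, DES, MYLPF and PYGM) were measured, with 34 features. At 6 h, 2 of these were lower and 3 higher, with a median of -0.08, and at 2 d limma called 0, with 3 at an unadjusted p under 0.05. At 7 d, 10 were lower and 3 higher, with a median of -0.15, and at 21 d 5 were lower and 2 higher, with a median of -0.06. For cells that enter a lesion the arrays offered little. Of the macrophage, neutrophil, lymphocyte, satellite cell, adipocyte, smooth muscle and erythrocyte markers listed, 0 had a tested feature. FN1, of fibroblasts, differed by -0.19, -0.01, -0.18 and -0.23 at the 4 ages, and PECAM1, of endothelium, by -0.09, -0.07, -0.06 and -0.07, none called. The part of cell composition in the thin filament differences was not tested.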

How the data were processed

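The authors deposited 1 table of log values with 90 columns for 48 muscle samples, 1 array each, a unit other than intensity or count. Per the series' design text, arrays were imaged at 25 micrometres and spots were measured on a grid with one diameter. The log base, centring and choice of features with values are not given in the sources used here. Columns of no sample numbered 0. Paired columns, identical in 41 of 42 samples, were averaged. Array medians spanned 0.112, above a limit of 0.1, so values were quantile normalized. The 1908 complete features of 4608 listed were fitted with limma 3.58.1 in R 4.3.3 (lmFit and eBayes) over all 5 groups with the animal as a fixed block, after the script was tested on simulated data. Tables were made with Python 3.11.15, pandas 2.3.3 and numpy 2.4.6, and figures with matplotlib 3.10.9.

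The pairing comes from the study's design, in which each animal carried every lesion age and a control. As a check, deviations from group means correlated at a median of -0.02 within animals (88 pairs) and -0.0035 between animals (795 pairs). Samples of the same animal were thus no more alike than samples of different animals, and the pairing rests on the design alone. Every feature of the 4 genes is named. For each one called against control, the 5 other named genes with the highest Pearson correlation over samples are given, as are all measured genes of the thin filament list. A gene with several features entered by the feature that correlated highest, so genes with many features had more chances. The members and gene lists were chosen with earlier results of these data known. The number of arrays limits the precision. Alternatives covered scaling, the block, array SD, a local trend, array weights, the samples kept and each animal left out. The out-of-register array was left out of the fit on seeing the values, and an analysis with every array kept was run beside it. No sequences are given.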

Additional observations from a re-analysis of the deposited data

Results flagged for a closer look

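In 14 of 85 groups of samples (17 features in 5 groups) 1 sample stood far from the others. Chance gives this in about 1 of 20 groups if they are independent. The 17 features share the same arrays, so these groups are not, and whether 14 is an excess was not tested. Among tropomyosins these were TPM2 feature 6108 at 7 d, where pig E was at 1.38 against 0.66 for the next sample, and TPM3 feature 4967 at 7 d, where pig G was at 2.18 against 1.76. TNNT1 feature 5964 had a low sample at 6 h (pig G, -0.13 against 0.46), at 2 d (pig K, 0.22 against 0.81) and at 7 d (pig F, -0.12 against 0.47).

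Among TNNC2 features, a low sample stood apart in feature 4616 in controls (pig K, 1.12 against 2.34), in feature 5336 at 6 h (pig D, 1.12 against 1.58) and in feature 5361 at 21 d (pig I, 0.10 against 0.64). A high sample stood apart in feature 5376 at 7 d (pig H, 2.00 against 1.36), in feature 7083 at 6 h (pig H, 0.31 against -0.16) and 21 d (pig J, 0.70 against -0.04), and in feature 7360 at 2 d (pig I, 1.15 against 0.45). Feature 5641 was high in pig K both in the control (2.70 against 1.19) and at 21 d (2.40 against 1.49).

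The response to injection differed between lesion ages, by a test of the step itself, in 3 cases. TNNC2 feature 5336 was higher at 2 d than at 6 h by 0.33 and lower at 7 d than at 2 d, by -0.46. TPM2 feature 6108 was higher at 2 d than at 6 h by 0.35, a limma call near the threshold (adjusted p = 0.0487) that was lost under 15 of 21 alternatives. Neither step from 6 h to 2 d was called on the table values. Of all features, 6.18% were called from 6 h to 2 d and 16.5% from 2 d to 7 d.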

How the results depend on the processing

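Over 21 alternatives, 281 of 357 repeats of the 17 called differences were still called, 76 were not, and 0 changed sign. Uncalled in the fit as given, TNNC2 feature 6366 turned to called lower values on the table values (-0.52 at 7 d, -0.55 at 21 d) and on median-centred values (-0.50 and -0.52). The number of the 17 features called was 3 at 6 h, 0 at 2 d, 6 at 7 d, 5 at 21 d, 2 from 6 h to 2 d, 1 from 2 d to 7 d, 0 from 7 d to 21 d and 4 over all ages. In the same order it was 6, 0, 11, 10, 0, 2, 0 and 8 on the table values, and 6, 1, 11, 10, 0, 2, 0 and 8 on median-centred values. It was 1, 0, 2, 0, 1, 1, 0 and 2 with array SD as a covariate, 3, 0, 3, 2, 1, 2, 0 and 3 with the local trend subtracted, 2, 0, 3, 3, 2, 1, 0 and 2 with every array kept, and 4, 0, 6, 4, 4, 5, 0 and 6 with array weights. Without samples that share copied values 3 were called at 7 d and 1 from 6 h to 2 d. Values divided by each array's SD, chosen after seeing the data, gave 1 from 6 h to 2 d. With each animal left out in turn the counts ran from 3 to 3 at 6 h, 3 to 4 at 7 d, 3 to 5 at 21 d, 1 to 2 from 6 h to 2 d, 1 to 2 from 2 d to 7 d and 3 to 5 over all ages. With no replicate block, and with a random block, 1 was called from 6 h to 2 d, and 5 at 7 d. The fit of only the 2 groups compared gives no value over all ages.

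Over all features, counts moved by more than 1.5 times from 225, 14, 484, 281, 118, 314 and 13 (same order, without the test over all ages) to 496, 28, 744, 708, 40, 127 and 0 on the table values, and from 432 to 258 over all ages with array SD as a covariate, which also gave 265 at 7 d and 111 at 21 d. Array weights gave 615 at 6 h, 53 at 2 d, 315 from 6 h to 2 d and 706 over all ages. Median-centred values gave 518, 57, 782, 742, 43, 177 and 1. On the table values, 5 were higher and 35 lower from 6 h to 2 d (29 and 89 in the fit as given), 52 and 75 from 2 d to 7 d (180 and 134), and 18 and 10 at 2 d (14 and 0). Values divided by array SD gave 93 higher and 182 lower at 21 d (124 and 157). The causes were not tested.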
